A study of Danio rerio with 4 samples.

Results

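Arginine is the shared substrate of several small pathways in liver. Arginases split it into ornithine and urea, ornithine decarboxylase turns ornithine into the first polyamine, and an amidinotransferase takes the amidino group of arginine for creatine. Some methylated arginines, released when proteins are degraded, inhibit the nitric oxide synthases until a dimethylaminohydrolase removes them. The 10 genes examined here were a list of enzymes at these branch points, chosen with earlier results of these data known. The ranks, intervals and p-values below are not corrected for that choice. Their probes were taken by gene symbol from the array's annotation. Of the 10 genes, 9 were measured with 10 of the 43603 probes. These were arg2, arg1, cps1, odc1, amd1, srm, sms, gatm (2 probes) and ddah1, while oat, the ornithine aminotransferase gene, was found under neither its symbol nor its gene identifier and is not analysed here. One kidney transporter gene carries "oat" as an older synonym and was not used in its place.

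The RNA came from zebrafish (Danio rerio) liver on 4 two-colour oligonucleotide arrays. The cadmium group was 2 RNAs (replicates 1 and 2) of fish at 5 µM cadmium, day 4, and the control group was 2 RNAs (replicates 2 and 3) at 0 µM, day 4. The dose unit is that of the series' design text, since the sample labels put a temperature unit after the same number. The sources used here do not give strain, sex, age or whether an RNA was pooled from several fish. The errors below therefore rest only on the spread between RNAs. They are moderated, so each joins a gene's own spread over the 4 RNAs with a spread estimated from all genes. Array 1 set cadmium 1 against control 2, array 2 cadmium 1 against control 3, array 3 cadmium 2 against control 3 and array 4 cadmium 2 against control 2. Each RNA was labelled once with each dye. All values are log2 ratios or log2 differences of cadmium over control, so that 0 means equal and a positive value means more in cadmium. This reading takes the deposited ratio as Cy5 over Cy3, which is likely but not stated, and under the opposite reading every sign turns. The ratios carry no signal level, so neither the expression of a gene nor the presence of liver markers could be judged from them.

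Across the series the standard deviation of the ratios was 0.198 to 0.388 per array, highest on the arrays with cadmium 2. Arrays 1 and 3, which share no RNA and have the same dye order, had a Pearson r of -0.043 over all probes. For arrays 2 and 4, also without a shared RNA, it was -0.22. In limma, 0 of 15554 genes passed an adjusted p of 0.05 (0% called, smallest adjusted p 0.567), and the same held for 0 of 43603 probes. An unadjusted limma p under 0.05 was found for 167 genes higher in cadmium (1.07%) and 147 lower (0.945%). An exact permutation test of 2 against 2 RNAs cannot go below 0.333 (two-sided) and was not used for single genes. No gene below is therefore said to have risen or fallen. Among markers of other cell types, all 14 measured ovary and oocyte genes were highest in cadmium 2 and lowest in cadmium 1, and 11 of 13 exocrine pancreas genes were lowest in control 3. All 10 measured leukocyte markers were lower in cadmium, with a median log2 difference of -0.13, and so were 8 of 9 skeletal muscle markers, with a median of -0.069. Over all genes 6700 of 15554 were lower, and the median size of a difference was 0.074. No marker of either list had an unadjusted limma p under 0.05. Cadmium 2 was the lowest RNA for 7 of the 10 leukocyte and 6 of the 9 muscle markers. How often each RNA was lowest or highest among all genes was not counted, and the arrays with cadmium 2 had the widest ratios. In bulk RNA, fewer cells of a type and less RNA per cell cannot be told apart.

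The measured enzymes lay on both sides of 0. Of the 9 genes 5 were above 0 and 4 below, and their median log2 difference was 0.0053 against 0.017 over all genes. In order from lowest to highest, arg2 stood alone at the low end, then arg1, sms, cps1, srm and amd1 lay within 0.1 of 0, and odc1, gatm and ddah1 stood at the high end. The moderated standard errors of the 5 genes in the middle were as large as or larger than their differences. No order among them can be read.

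**Figure D1:**
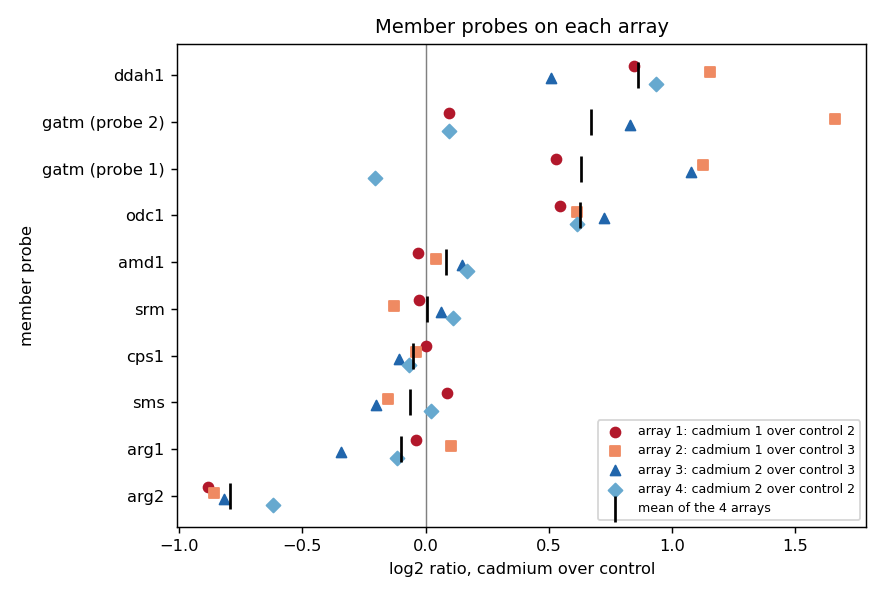
Log2 ratio of cadmium over control (x axis) for each of the 10 member probes (rows, sorted by mean), with 1 symbol per array and a bar at the mean of the 4 arrays. The 4 arrays of odc1 and ddah1 lie between 0.51 and 1.16, those of arg2 between -0.88 and -0.62, and the gatm probes spread from -0.21 to 1.66.

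The urea cycle converts ammonia to urea in mammalian liver, and most adult teleosts excrete ammonia itself. The gene arg2, for the arginase of mitochondria, was the lowest of the 9 genes. The probe of arg2 (Entrez Gene 322614) read -0.88, -0.86, -0.82 and -0.62 on arrays 1 to 4. Solved for the RNAs and set relative to their mean, it was at -0.47 and -0.32 in cadmium 1 and 2, against 0.35 and 0.44 in control 2 and 3. Both cadmium RNAs lay below both controls, with a gap of 0.67 between the groups and a distance of at most 0.15 between RNAs of 1 group. The log2 difference was -0.79 ± 0.10 (moderated SE, 2 RNAs per group), a ratio of 0.577 with a 95% interval of 0.473 to 0.703 from the same limma fit. It ranked 50 from the bottom of 15554 genes by size and 10 in either direction by moderated t. After adjustment over all genes its limma p was 0.9998. The leukocyte list, also lower, had medians of 0.021 and -0.19 in cadmium 1 and 2, against 0.066 and 0.069 in control 2 and 3. The part of leukocytes or muscle in the arg2 value was not tested.

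The cytosolic arginase gene arg1 (Entrez Gene 570368), the main liver form in mammals, read -0.039, 0.10, -0.34 and -0.12 on arrays 1 to 4. Its RNA values were 0.082 and -0.18 in cadmium 1 and 2, against 0.029 and 0.070 in control 2 and 3, and these overlapped. The log2 difference of arg1 was -0.099 ± 0.12, with a 95% interval of -0.45 to 0.25, and it was 0.033 without cadmium 2. That interval ends above the arg2 value of -0.79, but the difference between the 2 arginase genes was not itself tested. For cps1 (Entrez Gene 555623), whose mammalian enzyme brings ammonia into the cycle, the arrays read 7.46e-05, -0.037, -0.11 and -0.067. The groups met at cadmium 1 (0.0078) and control 2 (0.0068), and the log2 difference was -0.053 ± 0.085, with an interval of -0.29 to 0.19.

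Polyamine synthesis starts with odc1, ornithine decarboxylase, a short-lived enzyme on which the pathway is controlled. The probe of odc1 (Entrez Gene 114426) read 0.55, 0.62, 0.72 and 0.62 on arrays 1 to 4. It was at 0.27 and 0.36 in cadmium 1 and 2, against -0.27 and -0.36 in control 2 and 3. No overlap was seen between the groups, and RNAs of 1 group differed by 0.088 and 0.090. The log2 difference was 0.63 ± 0.09, a ratio of 1.54 (95% interval 1.29 to 1.84), with a limma adjusted p of 0.9998. The gene ranked 135 from the top by size and 17 in either direction by moderated t.

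The later enzymes of the pathway lay close to 0. The probe of amd1, which makes the aminopropyl donor from S-adenosylmethionine, read -0.031, 0.042, 0.15 and 0.17 on arrays 1 to 4, and its log2 difference was 0.082 ± 0.097 (interval -0.19 to 0.35). For srm, spermidine synthase, the arrays read -0.026, -0.13, 0.064 and 0.11, and the difference was 0.0053 ± 0.10 (interval -0.28 to 0.29). For sms, spermine synthase, they read 0.087, -0.15, -0.20 and 0.021, and the difference was -0.061 ± 0.12 (interval -0.39 to 0.27). In each of these 3 genes some arrays lay above 0 and others below, and the cadmium and control RNAs overlapped. The upper ends of the 3 intervals lie below 0.63, the value of odc1, although the differences between genes were not tested. On array 4 the amd1 value was exactly that of oaz2b, an antizyme gene. Whether the amd1 probe was dim was not tested.

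Methylarginine breakdown was represented by ddah1, dimethylarginine dimethylaminohydrolase. The probe of ddah1 (Entrez Gene 406561) read 0.85, 1.16, 0.51 and 0.93 on arrays 1 to 4, with a dye effect of 0.18. It was at 0.57 and 0.29 in cadmium 1 and 2, against -0.46 and -0.40 in control 2 and 3. The groups were apart by 0.69, while the cadmium RNAs differed from each other by 0.28 and the controls by 0.059. The log2 difference was 0.86 ± 0.13, a ratio of 1.82 (95% interval 1.41 to 2.34), with a limma adjusted p of 0.9998. By size this was rank 31 from the top of all genes.

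**Figure D2:**
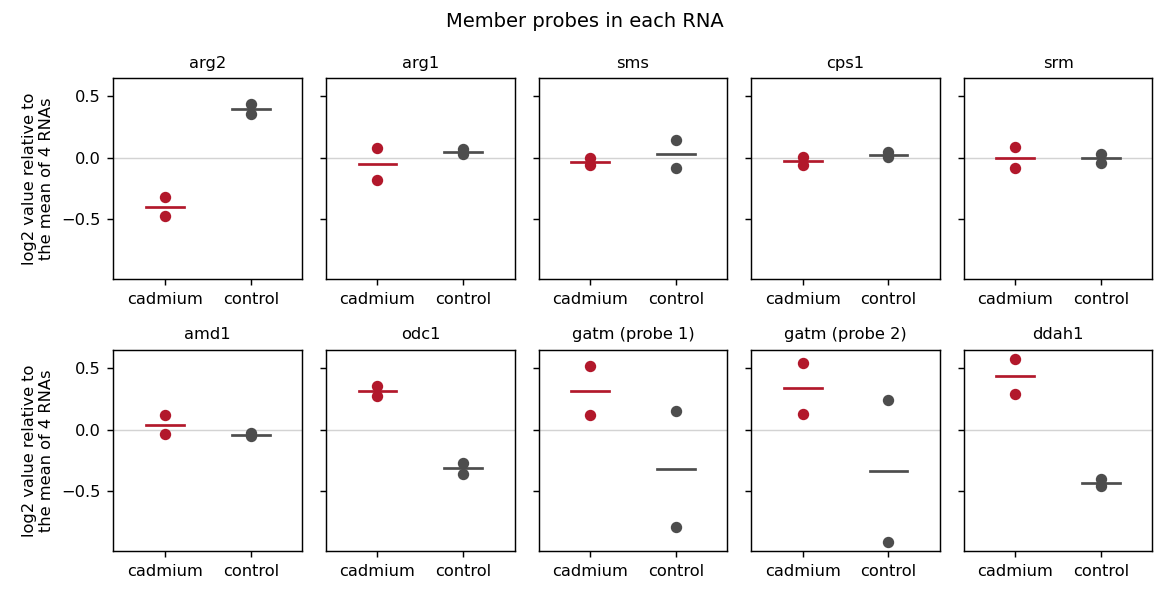
Log2 value relative to the mean of the 4 RNAs (y axis) for each member probe, with 1 point per RNA, cadmium on the left, control on the right and a bar at each group's mean. The groups are clearly apart for arg2, odc1 and ddah1, while for both gatm probes control 3 lies far below the other 3 RNAs.

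These 3 genes had all 4 arrays on the same side of 0. Among all genes, 7.99% had all arrays above 0, where 2 of the 9 stood, and 6.9% all below, where 1 stood. Both cadmium RNAs lay above both controls in the same 2 genes, against 11.7% of all genes, and below them in arg2, against 10.2%. These 3 were also the members with an unadjusted limma p under 0.05, against 1.07% of all genes higher and 0.945% lower. With a bar of 0.5 on every array, set after the values were seen, 17 genes were at 0.5 or above (0.109%), odc1 and ddah1 among them, and 30 at -0.5 or below (0.193%), arg2 among them. The genes were put on the list with such results of these data known, so these counts describe them and support nothing.

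Since the groups of these 3 genes did not overlap, leaving out any 1 RNA could not turn the sign of their differences. In size, these ran from -0.87 to -0.72 for arg2, from 0.58 to 0.67 for odc1 and from 0.72 to 1.00 for ddah1. The 3 genes passed the test only in a fit where many other genes passed too, the one without cadmium 1. Without it all 3 passed, with limma adjusted p = 0.0251 for arg2, 0.0300 for odc1 and 0.0237 for ddah1, and over the 11 alternatives each ran up to 1.0. In the same fit 1456 of all genes (9.36%) passed, and the lone cadmium RNA was given the spread of the control RNAs. Oocyte markers, at a median of -0.74 in cadmium 1 and 1.36 in cadmium 2, against -0.38 in control 2 and -0.16 in control 3, lay far apart between the cadmium RNAs. Without cadmium 2 the differences were -0.87 for arg2, 0.58 for odc1 and 1.00 for ddah1. Without cadmium 1 they were -0.72, 0.67 and 0.72 in the same order. In the fit where they passed, arg2 and ddah1 thus had smaller differences than without cadmium 2, and odc1 a larger one. The part of ovary tissue in these 3 genes was not tested.

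**Figure D3:**
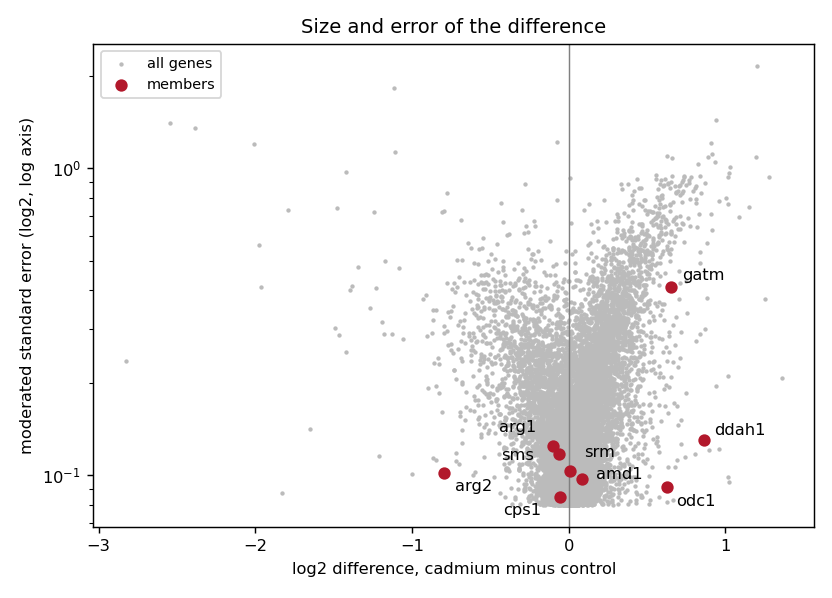
Log2 difference of cadmium minus control (x axis) against its moderated standard error (y axis, log scale) for all 15554 genes in grey and the 9 members in red. The genes arg2, odc1 and ddah1 combine differences beyond 0.6 in size with errors of 0.09 to 0.13, and gatm has an error of 0.41.

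Creatine synthesis starts with gatm, arginine:glycine amidinotransferase, which in mammals is active in kidney, pancreas and liver. Its mean log2 difference was as large as that of odc1, but it came with a much wider spread. The first probe of gatm (Entrez Gene 266799) read 0.53, 1.13, 1.08 and -0.21 on arrays 1 to 4, and the second 0.095, 1.66, 0.83 and 0.094. Both probes had their highest values on the arrays that carried control 3, arrays 2 and 3. As the mean of its probes, gatm was at 0.53 and 0.12 in cadmium 1 and 2, against 0.20 and -0.85 in control 2 and 3, so control 2 lay above cadmium 2. The log2 difference was 0.65 ± 0.41, with a limma 95% interval of -0.49 to 1.80 and an adjusted p of 0.9998. Without control 3 it was 0.13, without control 2 it was 1.17, without cadmium 1 it was 0.45 and without cadmium 2 it was 0.85. Dye effects of -0.17 and 0.21 in the 2 probes had opposite signs.

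Exocrine pancreas markers were also lowest in control 3. Their list median was -0.035 and 0.35 in cadmium 1 and 2, against 0.72 and -0.86 in control 2 and 3, over 13 measured genes. They and gatm differed in which RNA was highest, which for gatm was cadmium 1 and for 10 of the 13 markers control 2. Of the kidney list, which also holds gatm, the remaining 5 genes lay between -0.14 and 0.011 in log2 difference. The kidney list median, gatm included, was also lowest in control 3, at -0.076 over 6 genes. So was the intestine list median, at -0.41 over 4 genes, of which 2 were lowest there. The part of pancreas, intestine or kidney tissue in the gatm values was not tested.

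**Figure D4:**
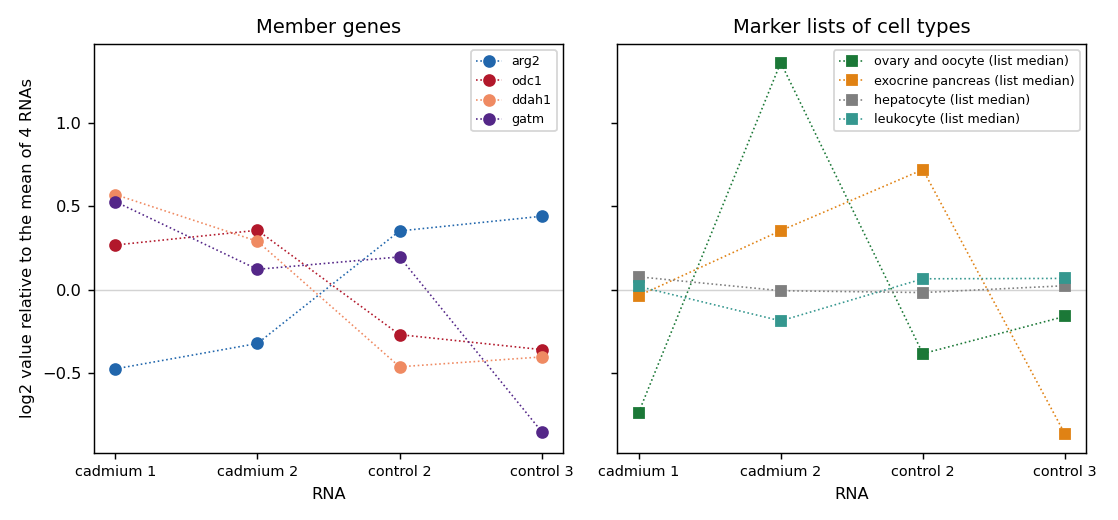
Log2 value relative to the mean of the 4 RNAs (y axis) in each RNA (x axis) for arg2, odc1, ddah1 and gatm on the left and for the medians of 4 marker lists on the right, where dotted lines only join values of the same gene or list. Control 3 holds the lowest gatm value (-0.85) and the lowest pancreas median (-0.86), and the ovary median is 1.36 in cadmium 2.

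Around these enzymes, 7 pathway lists were described by their counts, and 0 of their 103 measured genes passed. Leaving out the 9 genes above, 55 of the remaining 94 were higher in cadmium (58.5%) and 39 lower, with a median log2 difference of 0.028. Over all genes 8854 of 15554 were higher (56.9%), the share against which the list counts below stand. All 4 arrays were above 0 in 8 of the 94 and below 0 in 7, against 7.99% and 6.9% of all genes. At an unadjusted limma p under 0.05 stood 1 of the 94 on each side, against 1.07% of all genes higher and 0.945% lower. The higher one was glula, a glutamine synthetase gene that fixes ammonia, which read 0.60, 0.25, 0.79 and 0.61 on arrays 1 to 4 with a log2 difference of 0.56 ± 0.13. Its 2 probes were at 0.81 and 0.31, and the second read -0.12 on array 2. The lower one was sat1a.1, of the spermidine and spermine acetyltransferases that start polyamine breakdown, which read -0.18, -0.35, -0.26 and -0.65 with a difference of -0.36 ± 0.11. Its paralogues lay on both sides of 0, sat1a.2 at -0.088, sat1b at 0.086, sat2a.2 at 0.92 ± 0.63 and sat2b at -0.11.

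In the urea cycle and arginine list 5 of 9 measured genes were higher and 4 lower, with a median of 0.00060. Beside arg2, arg1 and cps1 the leading genes by moderated t were slc25a12 (0.31 ± 0.25), a mitochondrial aspartate and glutamate carrier, slc25a15a (0.071 ± 0.089), an ornithine carrier, and otc (0.11 ± 0.26), ornithine transcarbamylase. The last 2 lay within 1 standard error of 0. Apart from arg2, none of the 9 genes had its 4 arrays on the same side. Among all genes 7.99% had all arrays above 0 and 6.9% all below. The number of higher genes in this list was 3 of 9 with quantile normalized arrays or without control 3. The list median ran from -0.0615 without control 3 to 0.049 without control 2. Among 9 genes of ornithine and proline metabolism 5 were higher, led by pycr1b (0.43 ± 0.30), which makes proline, and the collagen prolyl hydroxylase gene p4ha1b (0.43 ± 0.33), with p4ha2 at -0.13 ± 0.13. Without cadmium 1 only 3 of them were higher, and the list median was -0.034, against 0.073 with all RNAs and 0.105 without control 2.

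Of 27 genes of polyamine synthesis and turnover 15 were higher and 12 lower (median 0.017, and 0.037 to 0.063 when any 1 RNA was left out). All arrays were above 0 in 3 of the 27, odc1, oaz1a and oaz2b, and all below in 1, sat1a.1. Among all genes these shares were 7.99% and 6.9%. Both cadmium RNAs lay above both controls in 6 of the 27, against 11.7% of all genes, and below them in 3, against 10.2%. The oaz2b value on array 4 was exactly that of amd1. The antizyme gene oaz1a, whose product marks ornithine decarboxylase for degradation, was at 0.23 ± 0.10, with its probes at 0.30 and 0.16. The other antizyme genes oaz1b, oaz2a and oaz2b were at -0.0017, -0.13 and 0.081. The gene slc18b1, a vesicular polyamine transporter in mammals, was at 0.32 ± 0.17. In the nitric oxide and methylarginine list 8 of 13 genes were higher (median 0.029). They included prmt1 (0.58 ± 0.37), the main arginine methyltransferase in mammals, and prmt3 (0.12 ± 0.12), while nos1apa, an adaptor of neuronal nitric oxide synthase, was at -0.15 ± 0.09. The prmt1 values were -0.20 and 0.78 in cadmium 1 and 2, against -0.37 and -0.20 in control 2 and 3, and the list median was -0.027 without cadmium 2 and 0.083 without cadmium 1. A cadmium 2 value at least 0.5 above every other RNA, as in prmt1, pycr1b and p4ha1b, was found in 7.12% of all genes, and one at least 0.5 below in 2.27%. Picked out after their values were seen, ddah2, the paralogue of ddah1, was at -0.10 ± 0.16, and the synthase genes nos1, nos2a and nos2b were at 0.029, -0.0019 and -0.025.

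Creatine genes were higher in 4 of 8 cases (median 0.0079). Beside gatm the leading genes by moderated t were the creatine transporter gene slc6a8 (-0.091 ± 0.088) and the creatine kinase genes ckma (-0.089 ± 0.087) and ckmt2a (-0.087 ± 0.095). The arrays of slc6a8 and ckmt2a lay on both sides of 0. Leaving out 1 RNA gave list medians from -0.10 (without cadmium 2) to 0.064 (without control 2). Of 19 genes of basic and related amino acid transport 12 were higher (median 0.052), a count that was 6 without cadmium 2, where the median was -0.0097, and the median was 0.036 without control 2. The leading genes were slc7a2 (0.13 ± 0.10), a cationic amino acid transporter of mammalian liver, slc38a2 (-0.15 ± 0.12, with probes at 0.05 and -0.35) and slc38a3a (-0.11 ± 0.11). For glutamate, glutamine and ammonia 11 of 18 genes were higher (median 0.053, and 0.014 without control 3 to 0.073 without cadmium 1). Beside glula these were led by the aminotransferase gene got1 (0.84 ± 0.49) and the glutamate dehydrogenase gene glud1b (0.40 ± 0.26). The got1 values were 0.94 and -0.097 in cadmium 1 and 2, against -0.86 and 0.016 in control 2 and 3, so its groups overlapped. Its 4 arrays read 1.91, 0.80, 0.0072 and 0.64. In this list all arrays were above 0 in 5 of the 18 genes, glula, got1 and glud1b among them, and all below in 2. Among all genes these shares were 7.99% and 6.9%, and the counts were 0 and 1 of the 8 creatine genes. Since the lists were chosen with earlier results of these data known, such counts only describe them.

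**Figure D5:**
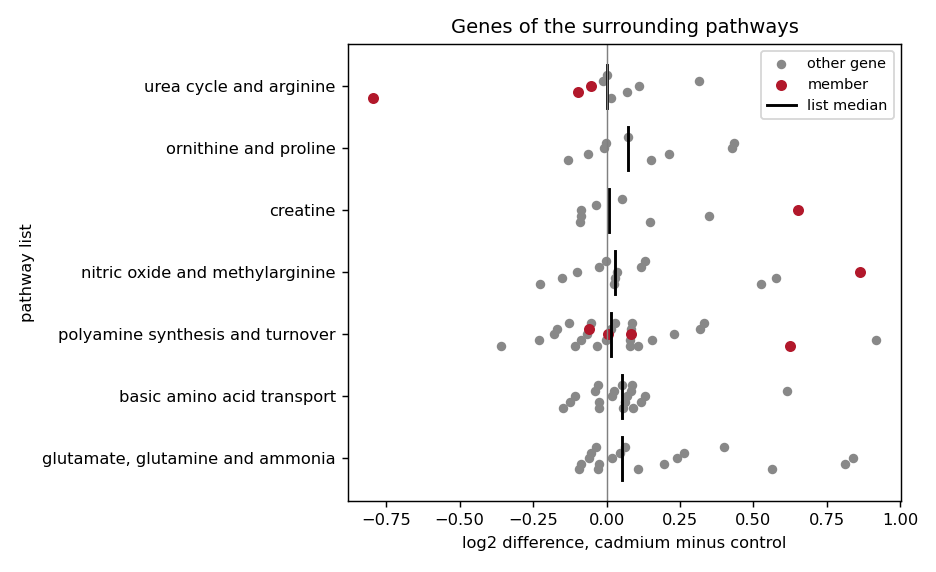
Log2 difference of cadmium minus control (x axis) for the measured genes of 7 pathway lists (rows), with members in red, other genes in grey and a black bar at each list's median. The list medians lie between 0.00060 and 0.073, and arg2 at -0.79 is the lowest gene plotted.

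The genes closest to arg2, odc1 and ddah1 over the 4 RNA values were taken by Euclidean distance among all 15554 genes, which describes 4 numbers and says nothing of shared function. For arg2 they were cfhl3 (distance 0.113), gbp1 (0.238) and elf3 (0.241). For odc1 they were mrpl12 (0.114), lars1b (0.120) and eif4a3 (0.126). For ddah1 they were aacs (0.141), gcat (0.154) and grpel1 (0.160). Of these 9 genes gcat, which cleaves an intermediate of threonine breakdown in mitochondria, was at 0.72 ± 0.15, eif4a3, a subunit of the exon junction complex, at 0.53 ± 0.11 and mrpl12, a mitochondrial ribosomal protein gene, at 0.64 ± 0.11 with its 3 probes between 0.61 and 0.67.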

How the data were processed

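Each array was deposited as dye ratios for its probes, read here as log2. Per the submitters' processing notes limma was used. How background, normalization and filters were handled by the authors is not given in the sources used here. Base 2 was inferred from the largest value of 6.14, which does not exclude another base, and the ratios given rest on it. Gene names came from the platform's annotation (23717 probes with 1 symbol, 15554 genes), and a gene is the mean of its probes. From the 4 ratios of a probe 3 differences between RNAs and 1 dye effect were solved, and 2 cadmium RNAs were compared with 2 control RNAs with lmFit and eBayes (limma 3.58.1, R 4.3.3; two-sided, Benjamini-Hochberg over all genes, threshold 0.05). The fit has 2 residual and 1.91 prior degrees of freedom for genes. Its run on simulated data, with changes larger than those of the members, served to check the code. It does not show how well differences of the members' size are found. Of 118 listed pathway symbols 102 were matched by symbol and 3 by synonym. Besides the members, the text names the 3 genes per pathway list with the largest moderated t and the 3 nearest profiles of arg2, odc1 and ddah1. Members and lists were chosen with earlier results of these data known. The number of RNAs, 2 per group, limits the precision. No coordinates or sequences are used.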

Additional observations from a re-analysis of the deposited data

How the results depend on the processing

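Over 11 alternatives the sign of arg2, odc1, ddah1, gatm, amd1 and cps1 was kept. The gene cps1 was tested in 10, because it fell among the genes of lowest variance. For arg2, odc1 and ddah1, leaving out 1 RNA could not have turned the sign. The arg1 difference ran from -0.23 to 0.033 when 1 RNA was left out, that of sms from -0.18 to 0.054 and that of srm from -0.078 to 0.088. The srm difference also turned to -0.0028 with scaled and -0.0052 with quantile normalized arrays, in the gene fit and in the probe fit. The count of genes passing, 0 in the fit reported, was 2 with arrays as units and no dye term and 2 without the genes of lowest variance, and between 0 and 1456 without 1 RNA. For probes it was 3, 4 and between 0 and 2523. With arrays as units and no dye term the limma adjusted p was 0.104 for arg2, 0.105 for odc1 and 0.219 for ddah1. No paired analysis was run. The sample titles do not say that equal replicate numbers mark a pair, and the groups share only 1 number. Most members rest on 1 probe, and a dim probe cannot be told from a stable one without signal levels. Some values recurred exactly. On array 1 cps1 read 7.46e-05, the median of all probes on that array. On array 2 it shared -0.0374546 with the muscle marker pvalb1, and on array 4 amd1 shared 0.169027 with oaz2b. Also on array 4, ckmt2a shared -0.00833423 with the red cell marker gata1a. On array 1 the pathway genes paox and slc3a1 shared 0.0662551. Whether these probes were dim was not tested.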

Other observations

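Among the 103 measured pathway genes, 10 stood at least 0.5 above every other RNA in cadmium 2, a margin set after the values were seen and passed by 7.12% of all 15554 genes. These were adi1, ckbb, glulb, got2b, p4ha1b, prmt1, prmt6, pycr1b, sat2a.2 and slc7a1b. The highest were slc7a1b, a cationic amino acid transporter gene, at -0.95 and 1.57 in cadmium 1 and 2 against -0.038 and -0.58 in control 2 and 3, and glulb, a second glutamine synthetase gene, at -0.75 and 1.56 in cadmium 1 and 2 against -0.82 and 0.0088 in control 2 and 3. The acetyltransferase gene sat2a.2 was at -0.40 and 1.31 in cadmium 1 and 2, against -0.29 and -0.62 in control 2 and 3. In these 10 genes the standard error of the cadmium minus control difference was 0.20 to 0.92. None of the 9 member genes was among them, and all 14 oocyte markers were also highest in cadmium 2. The part of ovary tissue in these values was not tested.

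In the opposite direction, agxt2, a mitochondrial aminotransferase that in mammals also acts on methylarginines, was at 0.59 and -0.82 in cadmium 1 and 2, against -0.056 and 0.28 in control 2 and 3. It was the only pathway gene at least 0.5 below the other RNAs in cadmium 2, where 2.27% of all genes were, and its log2 difference was -0.23 ± 0.52.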
